A study of Mus musculus with 15 samples.

Results

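The subject here is 9 purinergic receptor genes, the P2X channel genes P2rx2, P2rx3, P2rx4, P2rx5, P2rx6 and P2rx7 and the P2Y receptor genes P2ry1, P2ry2 and P2ry14, in mouse dorsal root ganglia (DRG). They were found as the rows of the deposited count table whose Ensembl identifier carries one of these symbols. Each symbol had 1 row, so the set is 9 of 39179 gene rows, and all 9 were among the 16976 genes that passed the filter on low counts and were tested.

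Messenger RNA of lumbar 4 to 6 ganglia was sequenced from 15 mice of 3 to 6 months on a mixed, mostly C57bl6 background, with 1 library per numbered animal. Injured knockout animals (n = 3) carried Wnt1-Cre and the floxed cluster on both alleles (Wnt1-Cre; mirflox/flox) and had a spared nerve injury (SNI), in which the peroneal and tibial branches of the sciatic nerve are tied and cut and the sural branch is kept. Injured controls (n = 3) had the same operation and were Wnt1-Cre without the floxed alleles (replicate 15) or wt (replicates 18 and 23). Naive knockout animals (n = 4) had the knockout genotype and no injury. Naive controls (n = 5) were Wnt1-Cre (replicates 1, 2, 3 and 6) or wt (replicate 7). Wnt1-Cre acts in cells descended from the neural crest, which in the ganglion include the sensory neurons, satellite glia and Schwann cells, so the deletion is not limited to one cell type. No allele or treatment is shared by all groups, and the time from injury to collection is not given in the sources used here.

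ATP and other nucleotides released from damaged or active cells act on 2 receptor families. P2X receptors are trimeric ion channels opened by ATP, and P2Y receptors are G protein-coupled and answer to ADP, UTP or UDP sugars as well. In sensory ganglia the channel subunit P2X3, alone or with P2X2, is best known from nociceptors, above all the non-peptidergic class, while P2X4 and P2X7 are known from immune and glial cells. The deleted cluster encodes miR-183, miR-96 and miR-182, microRNAs that lower transcripts carrying a match to their seed.

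The mature microRNAs are shown because they are what the knockout removes, with the seed (bases 2 to 8) in capitals. They come from RefSeq, on the minus strand of chromosome 6 of GRCm38.p6.
miR-183-5p: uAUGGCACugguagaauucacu
miR-96-5p: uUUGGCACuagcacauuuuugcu
miR-182-5p: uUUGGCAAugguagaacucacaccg
The 3 seeds are related and no 2 of them are identical. A full site for them in a transcript (an 8mer) reads GTGCCATA, GTGCCAAA or TTGCCAAA, on the sense strand only. A 7mer-m8 lacks the final A of the 8mer, and a 7mer-A1 lacks its first letter, so that miR-96 and miR-182 share the same 7mer-A1.

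Of the 9 receptor genes, 5 held at least one such site in the longest 3′ UTR that GENCODE M21 annotates, against 34.3% of 14451 tested genes with a 3′ UTR. An 8mer was found in 1 of 9, P2rx6, against 9.33% of tested genes, and an 8mer or 7mer-m8 in 4 of 9, against 26.8%. The sites below are the 8mer and 7mer-m8 sites found in the receptor genes, with the match in capitals, read along the transcript in DNA letters on GRCm38.
P2rx3, miR-183 7mer-m8, minus strand, chr2:84998992-84998998: tcttcccaggGTGCCATgcttatcc
P2ry14, miR-96 7mer-m8, minus strand, chr3:59114648-59114654: tactatgcatGTGCCAAtaaacaag
P2ry2, miR-96 7mer-m8, minus strand, chr7:100997247-100997253: gtattgtactGTGCCAAgcatggag
P2rx6, miR-182 8mer, plus strand, chr16:17572001-17572008: gaagtaaagcTTGCCAAAgcc
P2ry1 and P2ry14 also held a 7mer-A1 each, and the 8mer of P2rx6 contains the 7mer-A1 shared by miR-96 and miR-182. P2rx2, P2rx4, P2rx5 and P2rx7 had none of these letters in the UTR searched. A match is a description of the sequence and not evidence that a microRNA binds there.

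Libraries held between 5252920 and 10822762 counts. The shallowest was control SNI replicate 23, which was also the only one with a scaling factor under 0.9 (0.884), and the receptors' injury values are given with and without it. Since Mir183, Mir96 and Mir182 gathered only 0, 1 and 2 counts in the whole table, these libraries do not show whether the cluster was lost. The tissue label matched its markers: all 10 general neuron markers had counts in every library and summed to 11723 to 14462 CPM (counts scaled to library size), and all 10 satellite glia and 10 Schwann cell markers were present as well. Summed skeletal muscle markers were 162 to 1222 CPM in knockout SNI, 6.78 to 300 CPM in control SNI, 17.6 to 180 CPM in knockout naive and 4.83 to 94.7 CPM in control naive libraries. Animal numbers are 948 to 956 in knockout SNI, 974 to 976 in control SNI and 1041 to 1082 in naive animals. The labels do not call these ranges batches, but injury, and genotype within the injured animals, cannot be told apart from them.

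P2rx3 was by far the most abundant of the 9 receptors per exon length, in every group. On the scale of CPM per kilobase of exon (RPKM) its mean level was 57.9 ± 9.30 in knockout SNI (SD, n = 3), 78.7 ± 10.6 in control SNI (n = 3), 44.3 ± 5.43 in knockout naive (n = 4) and 83.5 ± 15.5 in control naive ganglia (n = 5). P2ry1, the ADP receptor that couples to Gq, came next, at 14.4 ± 1.72, 18.8 ± 4.48, 15.99 ± 0.915 and 18.5 ± 0.802 RPKM in the same 4 groups. P2rx6, a channel subunit that traffics poorly unless it assembles with others, followed in 3 groups, at 6.59 ± 1.44 RPKM in control SNI, 7.09 ± 0.679 in knockout naive and 8.85 ± 0.798 in control naive ganglia. It stood above the next gene in every naive library, while in control SNI its range met that of P2rx4. In knockout SNI ganglia P2rx6 had 5.60 ± 1.28 RPKM and overlapped with P2ry2 (6.12 ± 1.09 RPKM), which stood above it.

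P2rx4, P2rx5, P2rx7 and P2ry2 formed a middle group, with means between 3.70 and 6.12 RPKM. Neighbours in the order of these 4 overlapped in their libraries in every group, with 1 exception, P2rx4 above P2rx7 in knockout naive ganglia. P2rx2, the partner of P2X3 in heteromeric channels, stood below them, at 1.52 ± 0.315 RPKM in knockout SNI, 1.87 ± 0.129 in control SNI, 1.56 ± 0.383 in knockout naive and 2.20 ± 0.379 in control naive ganglia. P2ry14, a receptor for UDP-glucose and related UDP sugars, was last, with 0.365 ± 0.116 RPKM in knockout SNI, 0.624 ± 0.0671 in control SNI, 0.253 ± 0.0466 in knockout naive and 0.292 ± 0.0185 in control naive ganglia. The gaps between P2rx3 and P2ry1, and between P2rx2 and P2ry14, held in every library of every group on this scale. The second gap depends on the exon length used, 2574 bases for P2rx2 and 11059 for P2ry14. In CPM, P2ry14 stood above P2rx2 in control SNI ganglia (6.05 to 7.34 against 4.54 to 5.18 CPM). It stood below P2rx2 in control naive ganglia (3.01 to 3.55 against 5.02 to 7.39 CPM), and in both knockout groups the ranges overlapped.

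**Figure D1:**
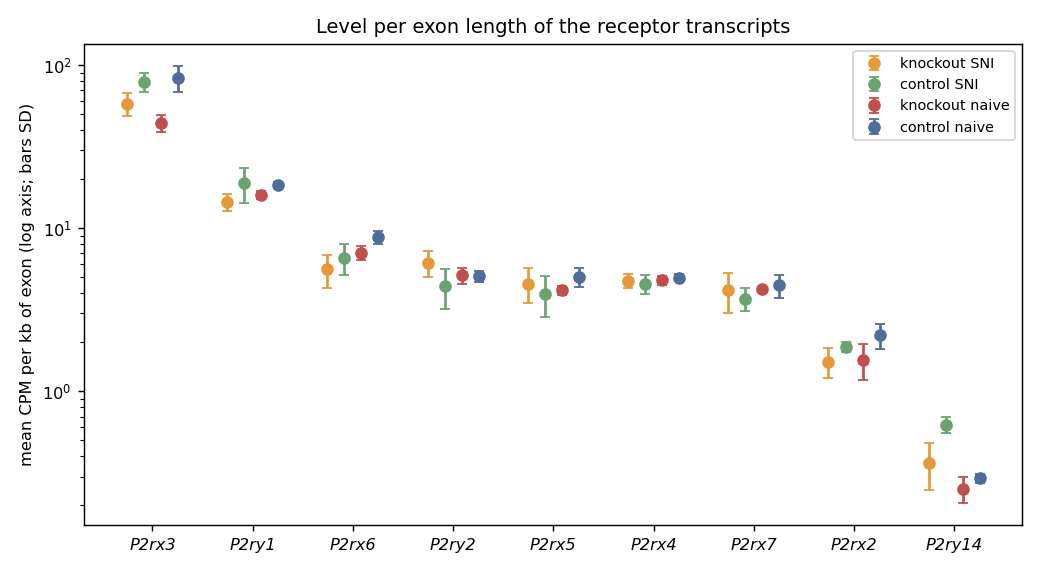
Mean level of each receptor transcript per kilobase of exon (RPKM, log axis) in the 4 groups, with SD bars (n = 3, 3, 4 and 5 libraries, in the order of the legend). P2rx3 stands highest in all groups, between 44.3 and 83.5 RPKM, and P2ry14 lowest, between 0.253 and 0.624 RPKM.

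P2rx3 made up most of the P2X transcripts by this measure. Its share of the summed RPKM of the 6 P2X genes was 66.8 ± 2.38% in knockout naive (SD, n = 4) and 76.2 ± 4.13% in control naive ganglia (n = 5). After injury it was 73.4 ± 6.26% in knockout and 79.2 ± 1.16% in control ganglia (n = 3 each). Per exon length P2rx3 stood 29.5 ± 6.02 times as high as its partner P2rx2 in knockout naive ganglia and 38.8 ± 9.43 times as high in control naive ganglia, with ranges that overlap (23.1 to 36.5 and 28.9 to 49.6). These shares and ratios follow from the single levels and were not tested.

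The first comparison addresses the receptors in uninjured animals with and without the cluster. P2rx3 fell. Its level was 105, 142, 124 and 124 CPM in knockout naive replicates 4, 5, 8 and 9, against 215, 265, 170, 279 and 236 CPM in control naive replicates 1, 2, 3, 6 and 7. Every knockout library lay below every control library, with the nearest values at 142 CPM in knockout and 170 CPM in control ganglia. The means were 124 ± 15.1 CPM (SD, n = 4) in knockout and 233 ± 43.3 CPM (n = 5) in control ganglia, a log2 fold change of -0.91 (SE 0.142, 95% interval -1.21 to -0.61), or 0.531-fold. In edgeR's quasi-likelihood test, adjusted over 16976 genes by the Benjamini-Hochberg method, the adjusted p was 0.00185, and P2rx3 ranked 62 of all genes by p.

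P2rx3 (ENSMUSG00000027071) lies on the minus strand of chromosome 2, 84998583 to 85037462 in GRCm38, and was read by 949 to 3064 counts per naive library. The call held with each naive library left out in turn (9 of 9, log2 -1.01 to -0.83, adjusted p 5.78e-04 to 0.0142) and with only the controls that carry Wnt1-Cre (log2 -0.91, adjusted p = 0.0132). In naive animals numbered 1041 to 1056, the knockout values were 105 and 142 CPM and the control values 215, 265 and 170 CPM. In those numbered 1079 to 1082 they were 124 and 124 CPM in knockout and 279 and 236 CPM in control animals. This division is not a batch named by the labels, and in each range the controls hold the lower animal numbers, so genotype and number cannot be told apart there either. Exons of P2rx3 share 51 bases with exons of Ssrp1 on the other strand. Ssrp1 itself had a log2 fold change of 0.09 (adjusted p = 0.742).

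P2rx3 was the only 1 of the 9 receptor genes called in this comparison, in which 1.89% of all tested genes were called (321 of 16976). The median log2 fold change of the 9 was -0.21, with 8 below 0 and 1 above, while the median of all genes was near 0. In 4 of the 9 (P2rx2, P2rx3, P2rx5 and P2ry1) every knockout library lay below every control library, which was so for 4.75% of tested genes, and in none was it the reverse, which held for 4.87%. Apart from P2rx3 these differences did not pass the adjusted test.

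P2rx2 had 2.64, 4.07, 4.37 and 4.96 CPM in knockout naive replicates 4, 5, 8 and 9, against 5.02, 5.28, 5.42, 5.19 and 7.39 CPM in control naive replicates 1, 2, 3, 6 and 7. The groups were apart, but their nearest values nearly met (4.96 CPM in knockout and 5.02 CPM in control). The log2 fold change was -0.51 (SE 0.187, adjusted p = 0.257), from 26 to 46 counts per knockout and 46 to 80 per control library. P2ry1 had 63.0, 69.6, 72.2 and 69.6 CPM in the same knockout libraries and 81.0, 78.7, 83.0, 81.1 and 74.0 CPM in the controls. That difference was small and even, with a log2 fold change of -0.21 (adjusted p = 0.511, SE 0.113). Exons of P2ry1 share 992 bases with exons of Gm37035, an antisense gene on the other strand that has no row in the count table.

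P2rx6 was 28.3 ± 2.71 CPM in knockout and 35.3 ± 3.19 CPM in control naive ganglia, with 1 knockout library (32.2 CPM) inside the control range. Its log2 fold change was -0.32 (SE 0.134, adjusted p = 0.34). P2rx5, an ATP-gated channel subunit also known from skeletal muscle, was 9.96 ± 0.609 CPM in knockout and 12.04 ± 1.61 CPM in control ganglia (log2 -0.27, SE 0.160, adjusted p = 0.583). When the fit held the naive groups alone, 3 of the 9 were called in place of 1, P2rx6 (adjusted p = 0.0321) and P2ry1 (0.0465) being added to P2rx3, while the share of all genes called in that fit was 6.18% (1017 of 16457).

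The remaining 4 were not called. P2rx4, the channel subunit of microglia and macrophages in nerve injury, had a log2 fold change of -0.05 with a 95% interval of -0.24 to 0.14. P2rx7, the ATP channel upstream of interleukin-1β release, stood at -0.07 (-0.39 to 0.25). P2ry2, a receptor for UTP and ATP, stood at 0.02 (-0.28 to 0.32), and P2ry14 at -0.21 (-0.62 to 0.20). All 4 intervals leave out a fall of the size fitted for P2rx3, and the widest is that of P2ry14, which rests on 20 to 36 counts per library.

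**Figure D2:**
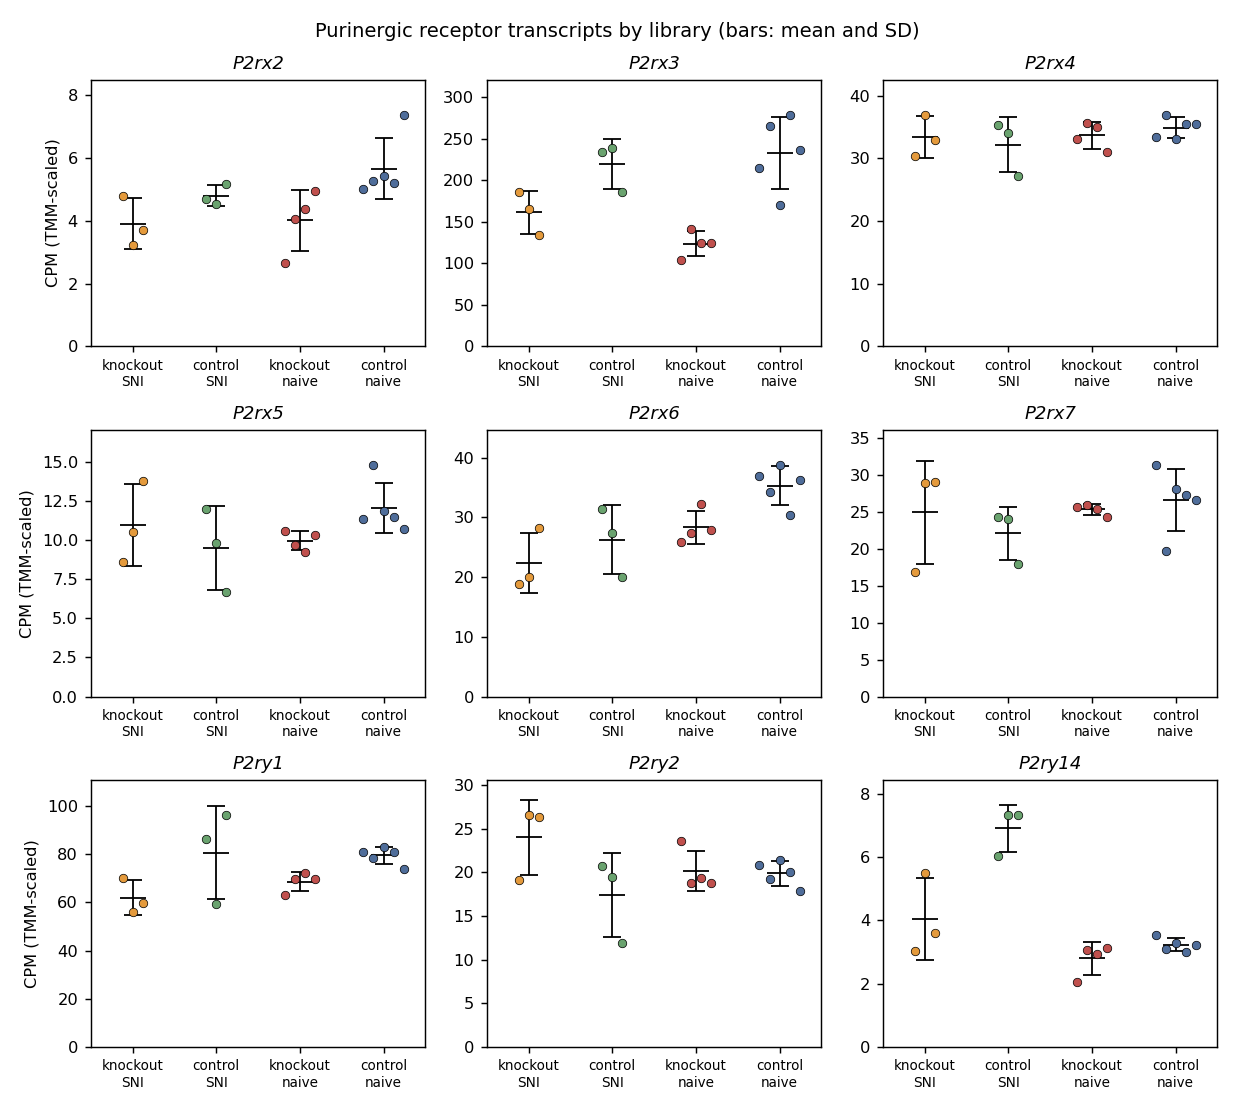
Level of each of the 9 receptor transcripts in each library (CPM, axes from 0), with knockout SNI, control SNI, knockout naive and control naive groups from left to right, and bars for the mean and SD. The knockout naive values of P2rx3, 105 to 142 CPM, lie under the control naive values of 170 to 279 CPM, and the control SNI values of P2ry14, 6.05 to 7.34 CPM, over all others.

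P2rx3 was set beside other transcripts of the neurons that carry it. Of 15 markers of non-peptidergic nociceptors, 4 were called lower and none higher in naive knockout ganglia, where 1.89% of all tested genes were called. The median log2 was -0.34, with 13 of the 15 below 0 and 2 above. Mrgprd, the receptor that defines the class, stood at 106 ± 13.04 CPM in knockout (SD, n = 4) and 197 ± 41.9 CPM in control ganglia (n = 5), a log2 fold change of -0.90 (adjusted p = 0.00623, SE 0.161), and its call held without each library. Prkcq, a protein kinase C isoform, fell by 0.66 on the log2 scale (adjusted p = 8.97e-04), also without each library. Lpar3, a lysophosphatidic acid receptor, fell by 0.93 (adjusted p = 0.00875, or 0.0565 if knockout naive replicate 8 is left out). Lpar5 fell by 0.91 (adjusted p = 0.02), a call lost without any of 5 naive libraries (at most 0.092, with knockout naive replicate 8 left out).

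All 15 had counts in every library, and their summed level was 1859 to 2253 CPM in knockout naive and 2053 to 2975 CPM in control naive libraries. Other markers of the class did not pass, among them the sodium channel gene Scn11a (log2 -0.31, adjusted p = 0.515). Gna14 did not pass either, with a higher mean in knockout (114 ± 12.8 CPM) than in control naive ganglia (106 ± 11.95 CPM). In bulk ganglia, fewer cells of a type and less RNA per cell cannot be told apart, and the part of either in the fall of P2rx3 was not tested. Of 10 markers of neurons in general none was called (median log2 0.11), and of 7 markers of peptidergic nociceptors none was called (0.03).

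The itch neurons that make somatostatin and natriuretic peptide, which also carry P2rx3, had a log2 fold change below 0 in all 11 of their markers, with a median of -0.78. Of these 11 markers 4 were called lower, where 1.89% of all tested genes were called. Their summed level was 556 to 588 CPM in knockout naive and 613 to 694 CPM in control naive libraries. Most of that sum was Jak1, which averaged 461 CPM in knockout and 476 CPM in control naive ganglia and was not called. Sst and Nppb, the genes of the peptides that name the class, were not called either. Sst averaged 3.05 CPM in knockout and 4.69 CPM in control naive ganglia, with ranges that overlapped. Nppb averaged 7.11 CPM in knockout and 13.7 CPM in control naive ganglia, with ranges apart. Il31ra, the interleukin-31 receptor gene, stood at 6.96 ± 2.34 CPM in knockout and 31.6 ± 5.42 CPM in control naive ganglia (log2 -2.19, SE 0.222, adjusted p = 5.50e-05). Htr1a, a serotonin receptor gene, fell by 2.06 on the log2 scale (adjusted p = 0.00107), and both calls held without each library. Hpse and Ptprk were the other 2, and leaving out 1 library lost the call of Hpse in 7 of 9 cases (at most 0.126, with knockout naive replicate 5 left out) and that of Ptprk in all 9 (at most 0.131, with knockout naive replicate 8 left out). The Mrgpr genes of another set of itch and touch neurons went the other way, with Mrgpra3, Mrgprb4 and Mrgprx1 higher by 1.70, 1.91 and 0.91 on the log2 scale. Those 3 are close paralogs, so reads could be split among them. The lists were chosen with earlier results of these data known and are a description of what moved beside P2rx3.

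**Figure D3:**
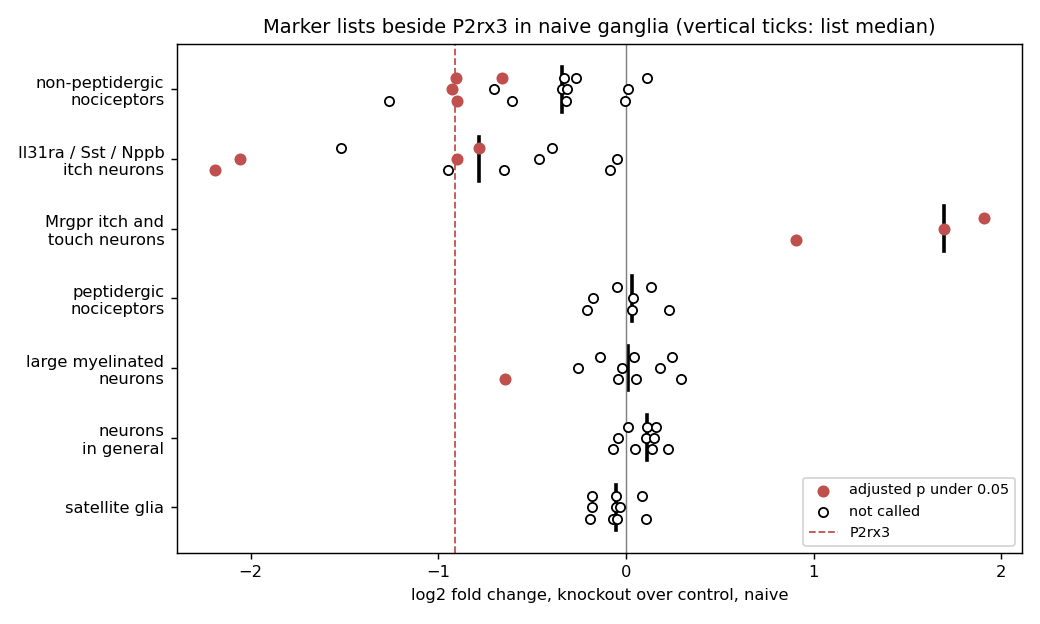
Log2 fold change of marker genes in naive ganglia, knockout over control (x axis), for 7 marker lists (rows), with red points for genes called at an adjusted p under 0.05, open points for the rest and black ticks for list medians. The dashed line marks P2rx3 at -0.91, beside called non-peptidergic markers at -0.93 to -0.66, while the lists of peptidergic, general neuronal and satellite glial genes centre near 0.

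The transcripts whose level followed P2rx3 most closely over all 15 libraries were named by their Pearson correlation of log2 CPM, as a description without a test, since the libraries share the group differences and depth. Among the highest were Il31ra (r = 0.92), Ptprt (0.92), Homer2 (0.92), Lrrc8b (0.90), Erlin2 (0.90), Gm16365 (0.89) and Myt1 (0.85). All 7 had a lower mean in knockout naive than in control naive ganglia, which a choice by likeness to P2rx3 favours. Lrrc8b, a subunit of volume-regulated anion channels, averaged 27.6 CPM in knockout and 55.4 CPM in control ganglia, and Ptprt, a receptor tyrosine phosphatase, 129 CPM in knockout and 223 CPM in control ganglia. The genes most like P2ry1 were Wfdc2 (0.93), Hs6st2 (0.92) and Bves (0.91), those most like P2rx6 were Fastkd1 (0.91), Tada2a (0.90) and Elmo3 (0.88), and those most like P2ry2 were Trim26 (0.94), Col4a2 (0.92) and Scrn1 (0.92), in the same 15 libraries. Among the 9 receptors themselves, described in the same way, P2rx3 and its partner P2rx2 had an r of 0.64. The closest pair was P2rx5 and P2ry2 (0.67), and the most opposed was P2ry1 and P2ry2 (-0.68). The shallow control SNI replicate 23 had the lowest P2rx5 (6.69 CPM) and P2ry2 (11.9 CPM) of the 15 libraries, and the highest P2ry1 (96.5 CPM). Correlations without that library were not computed.

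Injury against naive in control animals asks how the receptors stand in ganglia whose nerve has been cut. P2ry14 rose. It had 6.05, 7.33 and 7.34 CPM in control SNI replicates 15, 18 and 23, against 3.55, 3.10, 3.27, 3.01 and 3.23 CPM in control naive replicates 1, 2, 3, 6 and 7. The injured libraries all lay above the naive ones, with a wide gap between 6.05 and 3.55 CPM. The means were 6.91 ± 0.742 CPM (SD, n = 3) after injury and 3.23 ± 0.205 CPM (n = 5) in naive ganglia, a log2 fold change of 1.09 (SE 0.194, 95% interval 0.68 to 1.497), or 2.12-fold. The adjusted p in edgeR was 0.00386, and the rank by p was 155.

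These are low levels, read by 34 to 71 counts per injured and 27 to 36 counts per naive library. The call held without each library (8 of 8, log2 1.03 to 1.18, adjusted p up to 0.03), and without the shallow control SNI replicate 23 it was 1.05 (adjusted p = 0.00661). It was lost with only the controls that carry Wnt1-Cre, which leaves 1 injured control library that is assumed to vary like the others (log2 0.92, adjusted p = 0.151). P2ry14 (ENSMUSG00000036381; chromosome 3, 59113855 to 59153618, minus strand) lies within Med12l on the plus strand with no shared exon base, and Med12l had a log2 fold change of 0.05 (adjusted p = 0.879).

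P2ry14 was the 1 receptor gene of the 9 called, where 2.48% of all tested genes were called. It was also the 1 gene of the 9 whose injured and naive groups did not overlap, upward, as in 4.62% of tested genes. None stood apart downward, as 3.59% did. The other 8 had a log2 fold change between -0.41 and 0.01. P2rx3 had 234, 239 and 186 CPM in control SNI replicates 15, 18 and 23, within the 170 to 279 CPM of control naive libraries (log2 -0.08, 95% interval -0.40 to 0.24, adjusted p = 0.834; 0.03 without replicate 23). P2rx6 had 31.4, 27.5 and 20.1 CPM after injury and 30.4 to 38.8 CPM in naive ganglia, a log2 fold change of -0.41 (adjusted p = 0.194, SE 0.149). It was called without control SNI replicate 15 (log2 -0.55, adjusted p = 0.0461) and smaller without replicate 23 (-0.26), and it overlaps Slc7a4 on the other strand by 554 exon bases. Of the libraries left out in turn, replicate 15 was the one whose removal gave the most genes called in this comparison, as listed in the closing section on processing. P2rx5 stood at -0.30 (adjusted p = 0.426), P2rx7 at -0.26 (0.483), P2rx2 at -0.25 (0.588), P2ry2 at -0.17 (0.647), P2rx4 at -0.11 (0.639) and P2ry1 at 0.01 (0.97). Without the shallow replicate 23, P2rx5 stood at -0.13, P2rx7 at -0.14, P2rx2 at -0.29, P2ry2 at 0.02, P2rx4 at 0.00 and P2ry1 at -0.12, none of them called.

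Of 6 other P2 receptor genes listed, P2rx1, P2ry4 and P2ry10 did not pass the filter on low counts, and P2ry6, P2ry12 and P2ry13 were tested. P2ry13, an ADP receptor of macrophages and microglia, had 1.46, 3.30 and 4.75 CPM in control SNI replicates 15, 18 and 23 and 0.747 to 1.48 CPM in control naive ganglia, so replicate 15 lay inside the naive range. It was called (log2 1.39, SE 0.341, adjusted p = 0.0389), and the call was lost without any of 6 libraries (up to 0.138, without control SNI replicate 18) and in limma-voom (0.0972). P2ry12, its close relative, stood at 0.82 (adjusted p = 0.163), with its highest value, 20.5 CPM, in replicate 23, and without that library it was 0.23. P2ry6, the UDP receptor, stood at 0.67 (adjusted p = 0.213). Without replicate 15 both were called (adjusted p of 0.034 for P2ry12 and 0.0374 for P2ry6), in the same fit with the most genes called of all libraries left out.

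Macrophage markers moved in the same comparison. Of 15, 8 were called higher and none lower, with a median log2 of 0.76, 14 above 0 and 1 below. Among all tested genes 2.48% were called. The markers' summed level was 328 to 615 CPM in control SNI and 249 to 318 CPM in control naive libraries. In control SNI replicates 15, 18 and 23 the sum was 328, 506 and 615 CPM, where P2ry14 had 6.05, 7.33 and 7.34 CPM. In knockout SNI replicates 13, 19 and 21 the sum was 445, 525 and 422 CPM, where P2ry14 had 3.03, 5.49 and 3.60 CPM. Of 10 satellite glia markers none was called (median log2 0.02). The part of macrophages in the rise of P2ry14 was not tested.

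**Figure D4:**
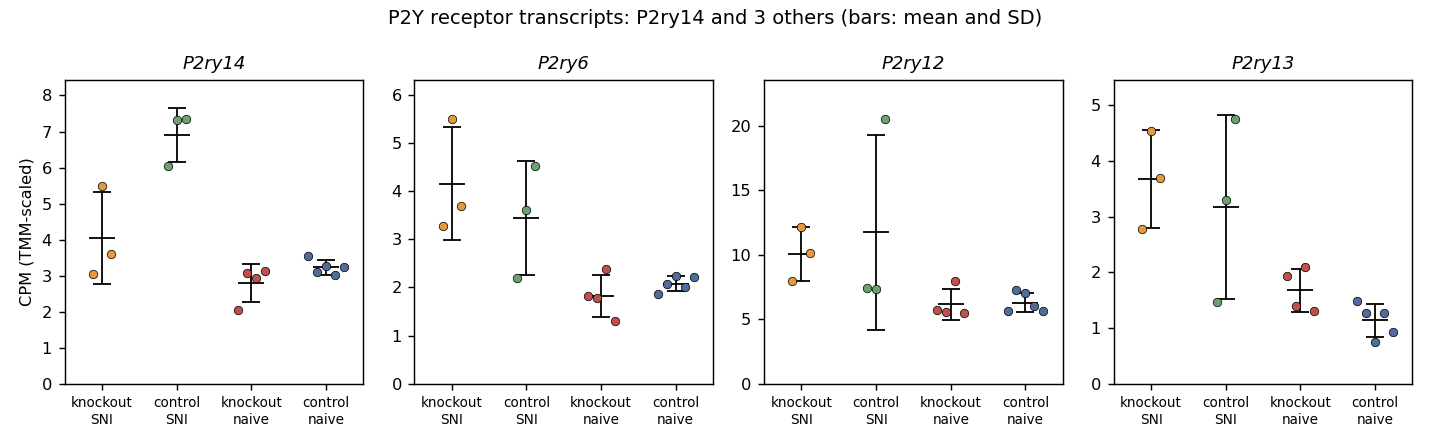
Level (CPM, axes from 0) of P2ry14 and of P2ry6, P2ry12 and P2ry13, which are outside the set of 9, in each library, with bars for the mean and SD. P2ry14 separates control SNI libraries (6.05 to 7.34 CPM) from control naive ones (3.01 to 3.55 CPM), while P2ry12 and P2ry13 spread widely within control SNI.

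In knockout animals none of the 9 receptors was called between injured and naive ganglia by edgeR, DESeq2 or limma-voom, where edgeR called 10.1% of all tested genes. At an unadjusted p under 0.05 there were 3 of 9 (P2rx3, P2rx6 and P2ry14), against 27% of all tested genes, and no receptor's injured and naive groups stood fully apart, where 16.6% of tested genes did so upward and 17.6% downward. P2rx3 had 186, 165 and 134 CPM in knockout SNI replicates 13, 19 and 21, against 105, 142, 124 and 124 CPM in knockout naive replicates 4, 5, 8 and 9. Replicate 21 lay inside the naive range and the other 2 above it. The log2 fold change was 0.39 (SE 0.158, 95% interval 0.05 to 0.72, adjusted p = 0.129), and with these groups alone in the fit it was 0.40 (adjusted p = 0.0306). That fit called 1 of the 9 receptors and 27% of all genes it tested (4438 of 16458).

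P2ry14 had 3.03, 5.49 and 3.60 CPM in knockout SNI replicates 13, 19 and 21, against 2.03, 3.07, 2.95 and 3.14 CPM in the knockout naive libraries. Replicate 13 lay among the naive values. The log2 fold change was 0.55 (SE 0.215, adjusted p = 0.113), and 0.26 without replicate 19, the highest. P2rx6 had 18.8, 20.1 and 28.2 CPM after injury and 25.9 to 32.2 CPM in naive knockout ganglia (log2 -0.34, SE 0.155, adjusted p = 0.173). The other 6 lay between -0.15 (P2ry1) and 0.26 (P2ry2), with adjusted p of 0.311 or more. P2ry6 and P2ry13, outside the set, were called here, at 1.18 (adjusted p = 0.0094, and 0.0875 without knockout SNI replicate 19) and 1.12 (0.0385, lost without any of 6 libraries, up to 0.19 without the same library). Of 15 macrophage markers 6 were called higher and none lower, where 10.1% of all tested genes were called.

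Knockout against control after injury sets the genotypes side by side under damage. None of the 9 was called by edgeR, DESeq2 or limma-voom, where edgeR called 1.04% of tested genes. At an unadjusted p under 0.05 there were 4 of 9 (P2rx3, P2ry1, P2ry2 and P2ry14), against 22.7% of all tested genes. In P2rx3 and P2ry14 every knockout library lay below every control library, as in 8.19% of tested genes. In none did every knockout library lie above, as in 7.99% of tested genes.

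For P2rx3 the values were 186, 165 and 134 CPM in knockout SNI replicates 13, 19 and 21, against 234, 239 and 186 CPM in control SNI replicates 15, 18 and 23. The highest knockout value, 185.5 CPM, and the lowest control value, 185.6 CPM, that of the shallow library, nearly met. The log2 fold change was -0.45 (SE 0.170, 95% interval -0.80 to -0.09, adjusted p = 0.153), and -0.54 without control SNI replicate 23 (adjusted p = 0.212). P2ry14 was 3.03, 5.49 and 3.60 CPM in the knockout libraries and 6.05, 7.33 and 7.34 CPM in the controls (log2 -0.75, SE 0.218, adjusted p = 0.103). It was called without control SNI replicate 15 (log2 -0.84, adjusted p = 0.0245) and not without replicate 23 (-0.70, adjusted p = 0.212). Of the libraries left out in turn, replicate 15 was the one whose removal gave the most genes called between injured genotypes, as listed in the closing section on processing.

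P2ry1 had 70.3, 56.1 and 59.6 CPM in knockout SNI replicates 13, 19 and 21, against 86.4, 59.3 and 96.5 CPM in control SNI replicates 15, 18 and 23. Control replicate 18 lay among the knockout values, and without it the log2 fold change of -0.38 (SE 0.138, adjusted p = 0.146) became -0.56 and was called (adjusted p = 0.0181), while without the shallow replicate 23 it was -0.23. P2ry2 had 19.1, 26.6 and 26.4 CPM in knockout and 20.8, 19.5 and 11.9 CPM in control libraries. Its log2 fold change was 0.44 (SE 0.175, adjusted p = 0.162), 0.27 without the shallow replicate 23 (adjusted p = 0.458), and 0.58 and called without replicate 15 (adjusted p = 0.0416). The fit without replicate 15 is again the one in which the most genes of all were called. The other 5 lay between -0.30 (P2rx2) and 0.18 (P2rx5), and without replicate 23 between -0.38 (P2rx6) and 0.06 (P2rx7), with P2rx5 at 0.03. Summed muscle markers were 162 to 1222 CPM in these knockout and 6.78 to 300 CPM in these control libraries, with none of the 6 called, and their part in the values of the channel subunits also known from muscle, P2rx5 and P2rx6, was not tested.

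**Figure D5:**
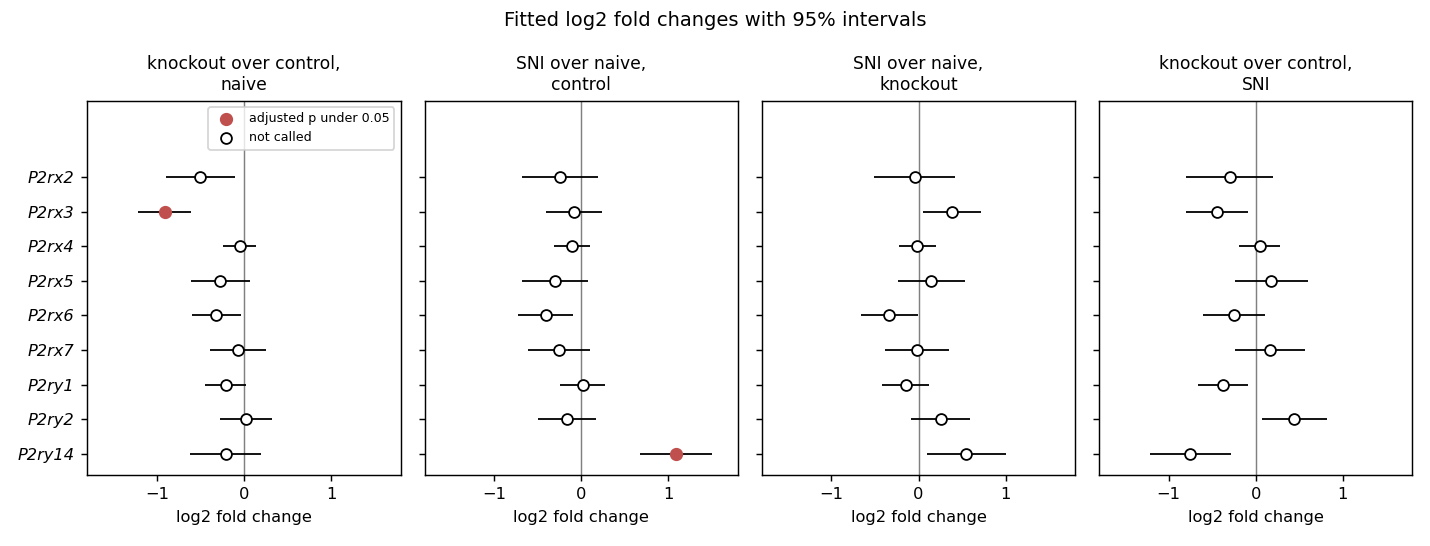
Fitted log2 fold changes of the 9 receptor genes (rows) with 95% intervals in 4 comparisons (panels), with red points for an adjusted p under 0.05 over 16976 genes. P2rx3 at -0.91 in naive animals and P2ry14 at 1.09 for injury in controls are the filled points, and all others are open.

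Whether the receptors answer to injury differently without the cluster was tested as the difference between the injury effects, knockout minus control. Of the 9 none was called, and of all genes edgeR called 0% (0 of 16976, with 2281 at an unadjusted p under 0.05, and 12 called by DESeq2). P2rx3 came nearest among the receptors, with 0.47 on the log2 scale (SE 0.220, 95% interval 0.00 to 0.93, unadjusted p = 0.0482, adjusted p = 0.369). P2ry14 stood at -0.54 (SE 0.292, interval -1.16 to 0.08, adjusted p = 0.402), so a smaller rise of P2ry14 in knockout ganglia did not pass the test. P2rx5 was 0.45 (adjusted p = 0.416), P2ry2 0.42 (0.398), and the other 5 lay between -0.16 (P2ry1) and 0.24 (P2rx7). Without control SNI replicate 23 the differences were 0.37 for P2rx3, -0.49 for P2ry14, 0.30 for P2rx5 and 0.25 for P2ry2, and the other 5 lay between -0.06 (P2rx6) and 0.26 (P2rx2), with none called.

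Other genes of nucleotide signalling were described from lists chosen in the same way. In naive ganglia 1.89% of all tested genes were called. Of 9 tested genes of ATP release and vesicular loading, 1 fell in naive knockout ganglia and 8 did not pass. That was Abcc4, an exporter of cyclic nucleotides and other organic anions, at 16.2 ± 2.05 CPM in knockout and 22.2 ± 2.05 CPM in control ganglia (log2 -0.45, adjusted p = 0.0385), and the call was lost on leaving out any of 8 of the 9 libraries (up to 0.16, without knockout naive replicate 5). None of the 9 was called in the other comparisons. Of the adenosine receptors, Adora1, Adora2a and Adora2b were tested and none was called in any comparison. In naive ganglia Adora1 had a log2 fold change of -0.31 (adjusted p = 0.302).

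Of 14 genes that break down nucleotides or handle adenosine, 1 rose in naive knockout ganglia, where 1.89% of all tested genes were called. Slc29a4, a membrane transporter of adenosine and monoamines, stood at 44.5 ± 4.17 CPM in knockout (SD, n = 4) and 30.1 ± 3.70 CPM in control ganglia (n = 5), a log2 fold change of 0.57 (adjusted p = 0.0119, SE 0.111, and 0.0638 without knockout naive replicate 9). After injury it was 62.7 ± 5.98 CPM in knockout and 32.5 ± 5.37 CPM in control ganglia (n = 3 each). The log2 fold change was 0.94 (adjusted p = 0.0021, SE 0.136). It was the 1 gene of the 14 called there, where 1.04% of all tested genes were called. That call held without each library and was lost with only the controls that carry Wnt1-Cre (adjusted p = 0.0775) or with the injured groups alone in the fit (0.286). With injury in knockout animals 1 of the 14 was called higher and 1 lower, where 10.1% of all tested genes were called. Slc29a4 rose there by 0.50 (adjusted p = 0.0183, lost without any of 4 libraries, up to 0.0872 without knockout SNI replicate 19). Slc29a1, the equilibrative nucleoside transporter ENT1, fell by 0.49 (adjusted p = 0.0162, lost without any of 3 libraries, up to 0.09 without the same library). Entpd3, the ATP-splitting ectoenzyme of nociceptors, was 116 ± 21.9 CPM in control SNI and 160 ± 20.4 CPM in control naive ganglia, which missed the threshold (log2 -0.47, adjusted p = 0.0524).

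Of 14 genes, most of them downstream of P2X7 or of Gq-coupled P2Y receptors, none was called in naive ganglia. With injury 1 was called in controls and 3 in knockouts, where 2.48% and 10.1% of all tested genes were called. Itpr1, the inositol trisphosphate receptor that releases stored calcium, rose with injury in both genotypes. It stood at 69.9 ± 15.1 CPM in control SNI (n = 3) and 31.0 ± 2.24 CPM in control naive ganglia (n = 5; log2 1.18, SE 0.133, adjusted p = 4.75e-05). In knockout animals it stood at 99.4 ± 17.2 CPM after injury (n = 3) and 28.6 ± 2.81 CPM in naive ganglia (n = 4; log2 1.80, SE 0.141, adjusted p = 3.83e-07). Cask is in the list as a scaffold protein that binds channels at the membrane, rather than as a downstream gene. It rose with injury in knockout animals (log2 0.58, adjusted p = 9.25e-04). Itpr3 did too (0.67, adjusted p = 0.0341), a call lost without any of 4 libraries (up to 0.168, without knockout SNI replicate 19). After injury none of the 14 differed between the genotypes past the threshold.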

How the data were processed

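Trizol was used for RNA and TruSeq Stranded mRNA for the libraries, per the labels' protocols. The authors deposited unnormalised read counts per Ensembl gene, and the build GRCm38 and the tools HTSeq 0.6.1, TopHat2 2.0.4, DESeq2, Cufflinks and SAMtools are listed per the submitters' processing notes. Not given in the sources used here are the strand setting of the counting, the annotation release and the treatment of multimapping reads. Without a known strand setting, reads of genes that overlap on opposite strands cannot be told apart.

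Genotype was taken from the titles and injury from the condition label. Symbols, exon lengths and 3′ UTRs came from GENCODE M21, and mature microRNAs from RefSeq. Genes passing filterByExpr of edgeR 4.0.16 (minimum count 10) were fitted in 1 model of 4 group means (TMM, robust quasi-likelihood F test, 11 residual degrees of freedom), two-sided, with Benjamini-Hochberg adjustment over 16976 genes and a threshold of 0.05. Genes not tested hold 0.131% of counts. CPM is scaled by TMM, and RPKM is that CPM per kilobase of the union of exons. Correlations used log2 CPM with a prior count of 2. Depth was 5252920 to 10822762 counts per library. A count of 0 allows 0.277 to 0.571 CPM (3 counts) by counting error alone, on library totals without the TMM factor.

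Alternatives were median-of-ratios scaling, library totals, no filter, DESeq2 1.42.0, limma-voom (limma 3.58.1), the compared groups alone, Wnt1-Cre controls alone, and each library left out. R 4.3.3, Python 3.11.15, NumPy 2.4.6, pandas 2.3.3 and matplotlib 3.10.9 were used, and the fit was tested on simulated data. The receptor genes, the marker and pathway lists and the alternatives were chosen with earlier results of these data known. Every receptor gene is named, with at most 4 called members of another list (those with the smallest p) and up to 3 that were not called. For likeness, tested genes whose mean reached 5 CPM were ranked by Pearson correlation, and the 3 highest (8 for P2rx3) may be named. Of those for P2rx3, 1 is not reported here.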

Additional observations from a re-analysis of the deposited data

Results flagged for a closer look

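In groups of 4 or 5 libraries, 3 of 18 sets of receptor values held a library far from the others, where chance alone flags about 1 set in 20. P2rx2 had 7.39 CPM in control naive replicate 7, the wt animal of that group, while the other 4 libraries lay between 5.02 and 5.42 CPM. P2rx5 had 14.8 CPM in control naive replicate 2, against 10.7 to 11.9 CPM in the other 4. P2ry2 had 23.6 CPM in knockout naive replicate 4, against 18.8 to 19.4 CPM in the other 3. None of these genes was called between knockout and control in naive ganglia, and none was called there without the library named.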

How the results depend on the processing

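The fall of P2rx3 in naive knockout ganglia was called under every alternative and without each library. The rise of P2ry14 in injured controls was called under every alternative except with only the controls that carry Wnt1-Cre. No paired analysis was possible because no replicate number is shared between groups.

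Counts of all genes called moved with the fit. DESeq2 called 515 genes between naive knockout and control, 673 for injury in controls, 793 between injured knockout and control and 12 for the difference between injury effects. With only Wnt1-Cre controls the counts were 709, 259, 74 and 1 in the same order, and 4745 for injury in knockouts. With the compared groups alone they were 1017 in naive animals, 213 for injury in controls, 4438 for injury in knockouts and 0 between injured genotypes, and without the filter 1 gene was called for the difference. Leaving out 1 library gave 151 to 229 genes in naive animals, 283 to 1506 for injury in controls, 587 to 1626 for injury in knockouts, 57 to 3558 between injured genotypes and 0 to 1235 for the difference, with the 1506, 3558 and 1235 all reached without control SNI replicate 15. Of the 9 receptors, with the compared groups alone 3 were called in naive animals and 1 for injury in knockouts, and with only Wnt1-Cre controls 0 for injury in controls. Without 1 library 1 to 2 were called for injury in controls and 0 to 2 between injured genotypes.

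Values near 0 changed sign, none of them called. With only Wnt1-Cre controls, log2 fold changes turned for injury in controls in P2rx3 (0.0272), P2rx4 (0.0436) and P2ry2 (0.0401), between injured genotypes in P2rx4 (-0.0831) and P2rx5 (-0.1243), in naive animals in P2ry2 (-0.0169), for the difference between injury effects in P2rx4 (-0.0435) and P2rx6 (-0.1812), and for injury in knockouts in P2rx4 (0.0001). P2rx4 for injury in knockouts also turned with median-of-ratios scaling (0.0012) and DESeq2 (0.0021), and P2ry1 for injury in controls with library totals (-0.0666) and limma-voom (-0.0232). Over libraries left out, the ranges that crossed 0 were, for injury in knockouts, P2rx2 -0.2052 to 0.0828, P2rx4 -0.0917 to 0.0513, P2rx5 -0.0518 to 0.2885 and P2rx7 -0.1359 to 0.1916. For injury in controls they were P2rx3 -0.1654 to 0.0286, P2ry1 -0.1213 to 0.1976 and P2ry2 -0.3026 to 0.0226. Between injured genotypes they were P2rx4 -0.0419 to 0.117, P2rx5 -0.0178 to 0.3773 and Mrgprd -0.3118 to 0.0183, in naive animals P2ry2 -0.0598 to 0.0504, and for the difference P2rx6 -0.1313 to 0.2138.

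The causes were not tested. Scaling choices moved the median of all genes by at most 0.0608 on the log2 scale. Groups of 3 to 5 animals, and counts as low as 20 for P2ry14 and 24 for P2rx2, limit what can be called.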
